A study of Mus musculus with 3 samples.

Results

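Chemokines and their receptors were examined in livers of mice expressing human YAP. Chemokines are small secreted proteins that guide leukocytes along gradients, and they are named CC, CXC, C or CX3C after the spacing of their first cysteines. They act through receptors coupled to Gi proteins, whereas atypical receptors bind and remove chemokines without that coupling. In injured liver, resident macrophages, endothelial cells, stellate cells and hepatocytes release CC ligands that recruit monocytes and CXC ligands that recruit neutrophils and T cells. Members were chosen by gene symbol alone, as probes named Ccl, Cxcl, Xcl1, Cx3cl1, Ccr, Cxcr or Ackr with a number. One CC receptor was not analysed here. This gave 53 genes on 63 probes, 34 ligands and 19 receptors, of 20284 named genes on the array.

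The data came from 3 one-colour arrays of mouse liver, 1 each for YAP (WT), YAP (1SA) and YAP (2SA). All mice carried the strain label c57BL6/J and the time label 2 days, and the study's methods give male mice aged 8 weeks. Human YAP cDNA was delivered by hydrodynamic tail vein injection of a plasmid with a hepatocyte-specific alpha-fetoprotein enhancer and albumin promoter. WT livers therefore also received the injection and human YAP, and only part of the hepatocytes took up the plasmid. YAP (1SA) and YAP (2SA) are mutants described as active, that is, released from inhibition by the Hippo pathway. No uninjected liver was analysed here. The labels leave unsaid if the RNA of an array was from 1 mouse or pooled mice. With 1 array per group no test was possible and no difference below has a replicate check.

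Values are scaled intensities, that is, the background-subtracted brightness of a probe as a multiple of the 75th percentile of its array. This percentile lay between 275.7 and 319.5 on the 3 arrays. A difference is a log2 difference of scaled intensity, and a difference of 1 is 2-fold. The error given after a value is that of the scanner software's error model for a spot. It covers the measurement of 1 array and not the spread between animals. All 10 listed hepatocyte genes were well above background on all 3 arrays. Brightness also depends on the probe, so the order of levels between genes was not read.

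Of the 53 genes, 32 were well above background on all 3 arrays, 7 on 1 or 2 arrays and 14 on none. The 32 genes spanned scaled intensities from 0.0569 to 43.5, and the 14 genes below background from 0.00619 to 0.0431. In 1SA, 6 of the 32 genes lay below WT by 2-fold or more and 0 lay above it by as much. Over all 13626 genes measured on 3 arrays, these shares were 1.14% and 0.727%. In 2SA, 3 of the 32 genes lay above WT by 2-fold or more, against 1.12% of all genes, and 0 lay below it, against 0.543%. Between the mutants, 10 of the 32 genes were at least 2-fold higher in 2SA than in 1SA, against 2.47% of all genes, and 0 were at least 2-fold lower, against 1.12%.

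Dim genes differ more between arrays, so the genes were also split by mean level into the lower 4542 and the upper 9084, with 17 and 15 of the 32 genes. Of the 17 dimmer members, 3 lay below WT in 1SA by 2-fold or more (background 2.18%), as did 3 of the 15 brighter ones (0.616%). In 2SA, 1 dimmer member (1.94%) and 2 brighter members (0.716%) lay above WT by 2-fold or more. Between the mutants, 6 dimmer members (3.99%) and 4 brighter ones (1.72%) were at least 2-fold higher in 2SA. Against WT, the 32 genes had a median of -0.26 for 1SA and of 0.08 for 2SA, and the median of 2SA against 1SA was 0.36. Over all genes the medians were -0.002, -0.03 and -0.029. Both comparisons with WT share the WT array, and the spread of the members was wide in each, from -1.71 to 0.77 in 1SA and from -0.63 to 1.27 in 2SA.

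**Figure D1:**
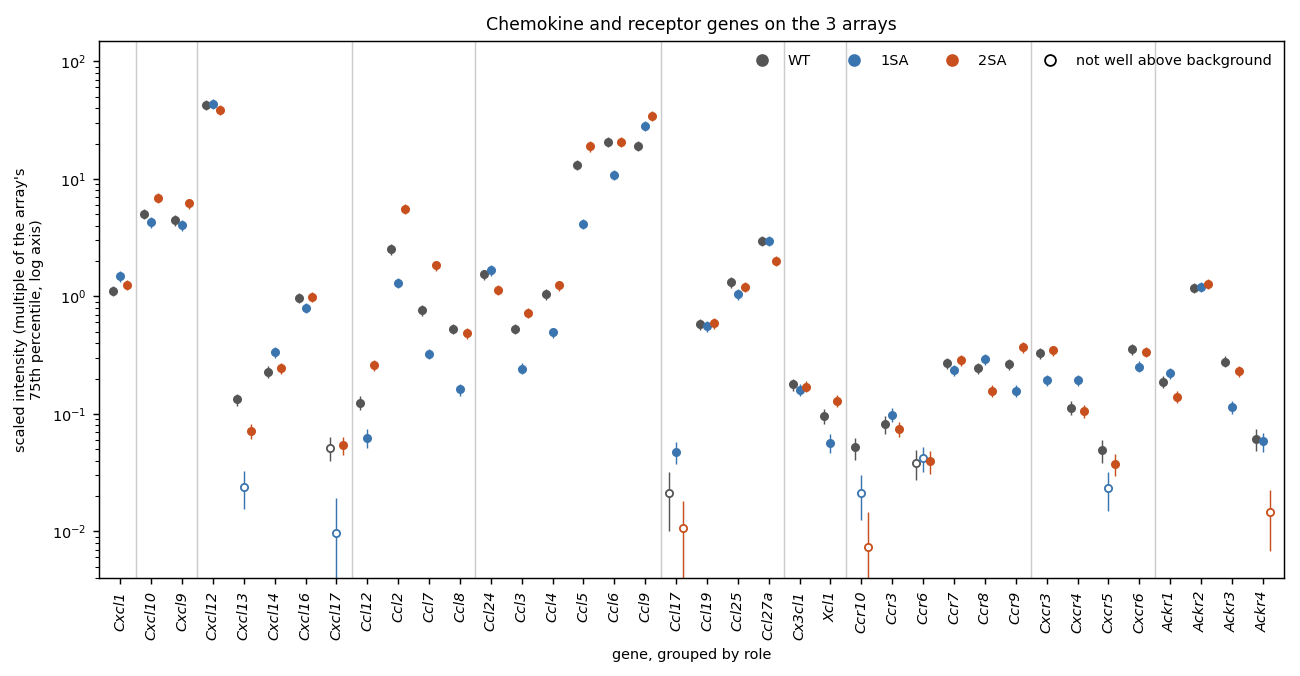
Scaled intensity (multiple of the 75th percentile of each array, log axis) of chemokine and receptor genes well above background on at least 1 array, grouped by role, with 1 gene not shown. Filled points are well above background, open points are not, and bars are the error of the scanner software's error model. Bars that run past the lower edge are clipped there. The points of Ccl2, Ccl7 and Ccl12 are lowest in 1SA and highest in 2SA, while those of Cxcl12 and Ackr2 lie close together.

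The CC ligands named monocyte chemoattractant proteins had the medians farthest from 0 of the role groups in all 3 comparisons. Ccl2, Ccl7, Ccl8 and Ccl12 are the mouse monocyte chemoattractant proteins, and all 4 were measured on all 3 arrays. Against WT their median was -1.11 for 1SA and 1.11 for 2SA, and between the mutants it was 2.07. Each of the 4 was at least 2-fold higher in 2SA than in 1SA, against 2.47% of all genes.

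Ccl2 (NM_011333), a main attractant of blood monocytes to inflamed tissue, was printed on 10 spots per array. Its scaled intensity ranged over the 10 spots from 2.19 to 2.73 on WT (median 2.63), from 1.18 to 1.38 on 1SA (median 1.32) and from 5.04 to 5.93 on 2SA (median 5.52). The spots of the 3 arrays did not overlap, and the SD over spots lay between 0.07 and 0.12 on the log2 scale. Ccl2 was the only member with repeated spots of 1 probe. Its differences from WT were -0.95 ± 0.20 for 1SA and 1.15 ± 0.20 for 2SA, and its intensity was 4.27-fold higher in 2SA than in 1SA.

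Ccl7 (NM_013654), a related ligand that attracts monocytes, had a scaled intensity of 0.763 ± 0.077 in WT, 0.326 ± 0.034 in 1SA and 1.84 ± 0.18 in 2SA. The array order was that of Ccl2. Its differences from WT were -1.23 ± 0.21 in 1SA and 1.27 ± 0.21 in 2SA, and the 5.64-fold difference between the mutants was the largest of the 32 genes. With normexp Ccl7 was at -0.72 in 1SA, short of 2-fold, and at 1.14 in 2SA. Ccl12 (NM_011331), the mouse ligand known as MCP-5, had 0.124 ± 0.017 in WT, 0.0628 ± 0.012 in 1SA and 0.261 ± 0.028 in 2SA. In 1SA it was 1.98-fold below WT, just short of the 2-fold limit, and in 2SA it was 2.10-fold above WT. With normexp background correction, whose offset shrinks differences of dim probes, its differences from WT were -0.09 for 1SA and 0.51 for 2SA. With normexp all 19 differences of at least 2-fold kept their sign, and 6 of them stayed at least 2-fold.

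Ccl8 (NM_021443), the mouse MCP-2, followed another order. Its scaled intensity was 0.532 ± 0.054 in WT, 0.162 ± 0.019 in 1SA and 0.486 ± 0.049 in 2SA. Thus 1SA alone stood apart, 3.28-fold below WT, while 2SA differed from WT by -0.13 ± 0.21, within the error. With normexp its difference between 1SA and WT was -0.92 and that between the mutants 0.83, both short of 2-fold.

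These genes are neighbours. In assembly GRCm38.p6, with protein-coding genes considered, chromosome 11 holds Ccl2, Ccl7, Ccl11, Ccl12, Ccl8 and Ccl1 in that order with no other gene between them. Ccl11, an attractant of eosinophils, and Ccl1 were, like Ccl26, not well above background on any array. A further run on chromosome 11 holds Ccl5, Ccl9, Ccl6, Ccl3 and Ccl4. Of these 5 genes, all measured on 3 arrays, 4 lay below WT in 1SA, as did 50.3% of all genes. At least 2-fold higher in 2SA than in 1SA were 3, against 2.47% of all genes.

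**Figure D2:**
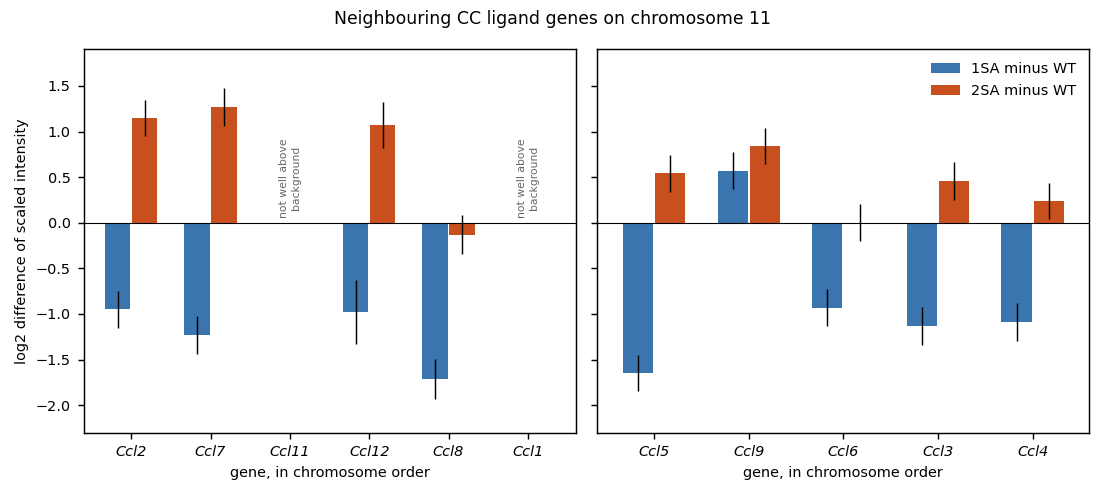
Log2 difference from WT of the CC ligand genes in both runs on chromosome 11, in chromosome order, for 1SA and 2SA, with bars for the error of the scanner software's error model. Ccl2, Ccl7 and Ccl12 lie near -1 in 1SA and above 1 in 2SA, Ccl8 is low in 1SA only, and Ccl9 is above WT in both mutants.

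Because Ccl12 and Ccl8 lie next to each other but differed in 2SA, the 250 bases before their start sites are shown. The sequences are from RefSeq, build GRCm38.p6, at chr11:82101595-82101844, plus strand, and chr11:82114935-82115184, plus strand, 5′ to 3′. Capitals mark every match to the motifs searched, and in both sequences the only match was a TATA box.
Ccl12: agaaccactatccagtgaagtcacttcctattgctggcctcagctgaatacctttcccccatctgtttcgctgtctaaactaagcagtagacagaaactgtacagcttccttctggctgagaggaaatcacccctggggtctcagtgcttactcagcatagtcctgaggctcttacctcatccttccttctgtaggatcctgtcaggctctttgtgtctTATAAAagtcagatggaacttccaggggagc
Ccl8: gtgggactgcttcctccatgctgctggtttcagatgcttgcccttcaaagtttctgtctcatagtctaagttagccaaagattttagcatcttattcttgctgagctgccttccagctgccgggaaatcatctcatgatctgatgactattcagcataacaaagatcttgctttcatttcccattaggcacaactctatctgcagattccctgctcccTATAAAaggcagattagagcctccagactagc
The motif TATAAA was searched on the given strand, and the other motifs on both strands. These were kappa B (GGG and TTCC with any 3 bases between), AP-1 (TGANTCA), the interferon response element (GAAA and GAAA with any 2 bases between) and TEAD (GGAATG). The promoter table held 39 of the 53 genes in 43 windows. TATAAA was found in 27.9% of these windows and in 7.59% of all 32851 windows, kappa B in 20.9% and 4.65%, AP-1 in 11.6% and 6.75%, and the interferon response element in 6.98% and 2.98%. GGAATG, the motif of the TEAD factors that YAP binds, was found in 14.0% of the windows and in 12.6% of all windows. A match describes letters in the window and not a bound site.

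Inflammatory CC ligands formed the next group, with 6 of 9 genes measured on 3 arrays. Ccl3, Ccl4 and Ccl5 are ligands that attract T cells, NK cells and macrophages. Ccl5 (NM_013653) had a scaled intensity of 13.1 ± 1.3 in WT, 4.17 ± 0.42 in 1SA and 19.0 ± 1.9 in 2SA. The 1SA array lay 3.14-fold below WT, and 2SA was 4.57-fold above 1SA. The difference of 2SA from WT was 0.54 ± 0.20. These values moved little with normexp, to -1.60 in 1SA and 0.50 in 2SA.

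Ccl3 (NM_011337) had a scaled intensity of 0.530 ± 0.054 in WT, 0.243 ± 0.026 in 1SA and 0.728 ± 0.073 in 2SA. Ccl4 (NM_013652) had 1.05 ± 0.11 in WT, 0.493 ± 0.050 in 1SA and 1.24 ± 0.12 in 2SA. Both were low in 1SA, Ccl3 by 2.19-fold and Ccl4 by 2.13-fold below WT. In 2SA they differed from WT by 0.46 ± 0.21 and 0.24 ± 0.20, and from 1SA by 1.58 ± 0.21 and 1.33 ± 0.21. With normexp neither was 2-fold different, at -0.72 and -0.73 in 1SA against WT and at 0.97 and 0.95 in 2SA against 1SA.

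Ccl6 and Ccl9 are ligands found in rodents and made by myeloid cells. Ccl6 (NM_009139) had a scaled intensity of 20.8 ± 2.1 in WT, 10.9 ± 1.1 in 1SA and 20.8 ± 2.1 in 2SA. The difference of 2SA from WT was 0.00 ± 0.20, and 1SA was 1.91-fold below WT. Ccl9 (NM_011338) went another way, at 19.1 ± 1.9 in WT, 28.3 ± 2.8 in 1SA and 34.3 ± 3.4 in 2SA. Both mutants lay above WT, 1SA by 0.57 ± 0.20 and 2SA by 0.84 ± 0.20. Ccl24 (NM_019577), an eosinophil attractant made by macrophages, differed from WT by 0.12 ± 0.20 in 1SA and by -0.44 ± 0.20 in 2SA.

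**Figure D3:**
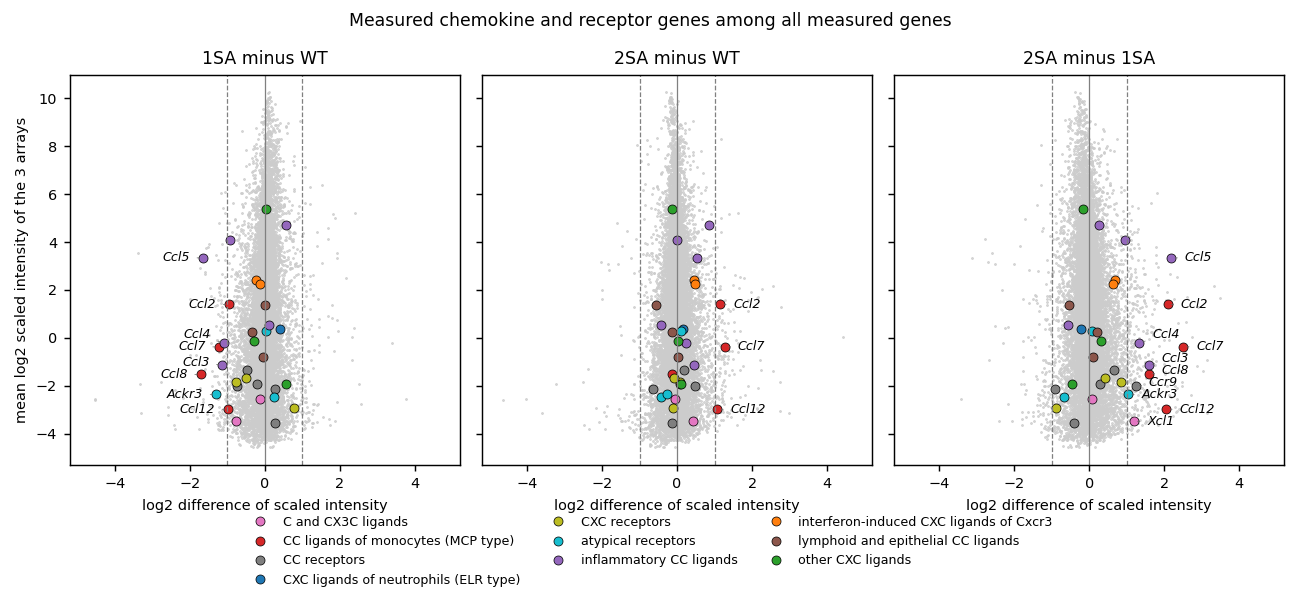
Log2 difference of scaled intensity (horizontal) against the mean log2 scaled intensity of the 3 arrays (vertical) for each comparison. Grey points are all 13626 genes measured on 3 arrays, coloured points are the 32 chemokine and receptor genes by role, and dashed lines mark 2-fold. Genes at 0.95 or beyond are named. In 2SA minus 1SA, 10 coloured points lie right of the 2-fold line and 0 left of it.

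Among the interferon-induced CXC ligands, Cxcl9 and Cxcl10 attract activated T and NK cells through Cxcr3. Cxcl10 (NM_021274) had a scaled intensity of 5.06 ± 0.51 in WT, 4.28 ± 0.43 in 1SA and 6.87 ± 0.69 in 2SA. Cxcl9 (NM_008599) had 4.45 ± 0.45 in WT, 4.03 ± 0.40 in 1SA and 6.18 ± 0.62 in 2SA. Both were highest in 2SA, and neither differed by 2-fold in any comparison. The differences between the mutants were 0.68 ± 0.20 for Cxcl10 and 0.62 ± 0.20 for Cxcl9. A further Cxcl9 probe gave 0.75. Their receptor Cxcr3 (NM_009910) had 0.331 ± 0.035 in WT, 0.194 ± 0.021 in 1SA and 0.347 ± 0.035 in 2SA, so that 1SA alone was apart, by -0.77 ± 0.22.

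The Cxcl10 promoter was the window among the genes shown with several motifs. It holds 1 interferon response element, 2 kappa B matches and 1 AP-1 match in the 250 bases before the start site (chr5:92348890-92349139, minus strand, GRCm38.p6, RefSeq), here in capitals.
Cxcl10: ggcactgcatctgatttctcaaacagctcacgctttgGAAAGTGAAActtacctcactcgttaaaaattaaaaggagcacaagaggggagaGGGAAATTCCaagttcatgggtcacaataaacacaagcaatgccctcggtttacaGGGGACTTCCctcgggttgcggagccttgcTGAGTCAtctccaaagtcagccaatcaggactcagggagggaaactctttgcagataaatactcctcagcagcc
Of the 10 genes at least 2-fold higher in 2SA than in 1SA, 6 had a window in the table. The other genes, Ccl2, Ccl4, Ccl5 and Ccl7, had no window. None of the 6 windows, those of Ccl3, Ccl8, Ccl12, Xcl1, Ccr9 and Ackr3, held a kappa B, AP-1, interferon response or TEAD match. These motifs were found in 4.65%, 6.75%, 2.98% and 12.6% of all windows. At such shares 6 windows may well hold no match, so the absence was not read as a trait of these genes. TATAAA was in 3 of the 6, those of Ackr3, Ccl12 and Ccl8.

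Neutrophil attractants were mostly below background. Of the 5 CXC ligands of this type, Cxcl2, Cxcl3, Cxcl5 and Cxcl15 were not well above background on any array, nor were their receptors Cxcr1 and Cxcr2. Cxcl1 (NM_008176) had a scaled intensity of 1.12 ± 0.11 in WT, 1.48 ± 0.15 in 1SA and 1.26 ± 0.13 in 2SA. The 1SA array was highest, by 0.40 ± 0.20 over WT. Of 8 neutrophil markers measured on 3 arrays, 4 were higher and 4 lower than WT in each mutant, and Mmp8, Mmp9 and Ngp were below background on all 3 arrays.

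Of the 5 remaining CXC ligands, 3 were measured on all 3 arrays and 2 on part of them. Cxcl12 (NM_001012477), which retains Cxcr4-bearing cells in tissues, had 42.8 ± 4.3 in WT, 43.5 ± 4.4 in 1SA and 38.7 ± 3.9 in 2SA. Its dimmer probe differed more in 2SA, by -0.63 from WT. Its receptor Cxcr4 (NM_009911) was highest in 1SA, at 0.193 ± 0.021, against 0.113 ± 0.015 on WT and 0.105 ± 0.013 on 2SA. Cxcl14 was also highest in 1SA, by 0.56 ± 0.22 over WT, and Cxcl16 differed by -0.28 ± 0.21 in 1SA and 0.02 ± 0.21 in 2SA. Cxcl13 (NM_018866), which attracts B cells, had 0.133 ± 0.016 on WT and 0.0715 ± 0.0098 on 2SA. It was not well above background on 1SA (0.0241). Against the lowest measured signal of 1SA (0.0372), it was 3.58-fold lower there than on WT. Ccl28 at 0.0431 on 1SA was also not well above background, so the true difference may be smaller. Of 401 named probes measured on WT and not on 1SA, 37.4% differed at least 2-fold by this measure. Cxcl17 was well above background on 2SA only, with a difference of 0.54 from the lowest measured signal of 1SA.

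Of 7 lymphoid and epithelial CC ligands, 3 were measured on all 3 arrays, and none of these differed by 2-fold. Ccl19, which guides T cells and dendritic cells through Ccr7, differed from WT by -0.06 ± 0.21 in 1SA and by 0.03 ± 0.21 in 2SA, and its receptor Ccr7 by -0.20 ± 0.22 and 0.09 ± 0.22. Ccl25, the ligand of Ccr9, differed by -0.34 ± 0.20 and -0.13 ± 0.20. Ccl27a (NM_001048179) had 2.97 ± 0.30 in WT, 2.96 ± 0.30 in 1SA and 2.02 ± 0.20 in 2SA. Its 3 probes gave differences of -0.56, -0.41 and 0.02 in 2SA against WT, and transcripts of near-identical copies such as Ccl27b may bind the same probe, so its values are uncertain. Ccl17 (NM_011332) was well above background on 1SA only, at 0.0471, with 0.0211 in WT and 0.0107 in 2SA below background. Against the lowest measured signal of 2SA (0.0186), it was 2.54-fold lower there than on 1SA. Eomes at 0.0349 on 2SA was also not well above background, so the true difference may be smaller. Of 303 named probes measured on 1SA and not on 2SA, 58.7% differed at least 2-fold by this measure. Ccl20, Ccl22 and Ccl28 were not well above background on any array.

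Xcl1 (NM_008510), the C ligand made by activated T and NK cells, had a scaled intensity of 0.0960 ± 0.014 in WT, 0.0569 ± 0.010 in 1SA and 0.130 ± 0.015 in 2SA. It was 2.28-fold higher in 2SA than in 1SA, and with normexp this difference went from 1.19 to 0.20. Cx3cl1 (NM_009142), the membrane-bound CX3C ligand, had 0.178 ± 0.020, 0.161 ± 0.018 and 0.171 ± 0.018 on WT, 1SA and 2SA, and these values overlapped within their errors.

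Of the 19 receptors, 11 were measured on all 3 arrays. Ccr9 (NM_009913), a homing receptor of lymphocytes and plasmacytoid dendritic cells, had 0.264 ± 0.029 in WT, 0.157 ± 0.019 in 1SA and 0.369 ± 0.038 in 2SA. It was the only CC receptor at least 2-fold different between the mutants, at 2.35-fold, and with normexp this difference went from 1.24 to 0.52. Ccr8 (NM_007720) had the opposite order of the mutants, at 0.244 ± 0.027 in WT, 0.294 ± 0.031 in 1SA and 0.158 ± 0.018 in 2SA. A further probe of Ccr8 was below background on all 3 arrays. Ccr3 stayed within the error of WT, at 0.27 ± 0.33 in 1SA and -0.14 ± 0.34 in 2SA. Cxcr6 (NM_030712), a receptor of liver NK and T cells, had 0.358 ± 0.038 in WT, 0.253 ± 0.027 in 1SA and 0.338 ± 0.035 in 2SA.

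Some receptors were measured on only part of the arrays. Ccr10 (NM_007721) was well above background on WT only, at 0.0518, with 0.0214 in 1SA and 0.00731 in 2SA below background. Against the lowest measured signal of 2SA (0.0186), it was 2.79-fold lower there than on WT. Ackr4 (NM_145700), a scavenger of Ccl19 and Ccl25, had 0.0614 in WT, 0.0583 in 1SA and 0.0147 in 2SA. It was not well above background on 2SA, and by the same measure 3.30-fold lower there than on WT. Eomes at 0.0349 on 2SA was also not well above background, so both true differences may be smaller. Of 258 named probes measured on WT and not on 2SA, 78.3% differed at least 2-fold by this measure. Cxcr5 was not well above background on 1SA, and Ccr6 was well above background on 2SA only. Ccr1 and Ccr4 were below background on all 3 arrays.

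Atypical receptors differed among themselves. Ackr3 (NM_007722), a scavenger of Cxcl12, had a scaled intensity of 0.279 ± 0.030 in WT, 0.114 ± 0.015 in 1SA and 0.233 ± 0.025 in 2SA. It was low on 1SA, 2.46-fold below WT, and 2SA differed from WT by -0.26 ± 0.22. With normexp the difference of 1SA from WT was -0.53 and that of 2SA from 1SA went from 1.04 to 0.32, both short of 2-fold. Ackr2 (NM_021609), which scavenges inflammatory CC ligands such as Ccl2, had 1.19 ± 0.12, 1.21 ± 0.12 and 1.28 ± 0.13 on WT, 1SA and 2SA. Ackr1 (NM_010045), the receptor of red blood cells and venules, differed from WT by 0.23 ± 0.23 in 1SA and by -0.43 ± 0.23 in 2SA.

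Related genes outside the naming rule were read next. Of 10 such genes, 8 were measured on 3 arrays. Of the 8, 1 lay at least 2-fold above WT in 2SA (1.12% of all genes). At least 2-fold higher in 2SA than in 1SA were 2 (2.47% of all genes). Cx3cr1, the receptor of Cx3cl1 on monocytes and macrophages, had a scaled intensity of 1.08 in WT, 0.725 in 1SA and 2.48 in 2SA. Pf4, a CXC ligand of platelets also made by macrophages, had 2.98, 2.15 and 5.79. Both had the array order of Ccl2. Cmklr1, the chemerin receptor, was well above background on 2SA only, at 0.439, and its ligand Rarres2 differed by 0.07 in 1SA and 0.08 in 2SA.

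Of 33 inflammatory inducers and adhesion molecules, 27 were measured on 3 arrays, with medians of -0.18 for 1SA and 0.09 for 2SA against WT. In 2SA, 1 of the 27 lay at least 2-fold above WT, against 1.12% of all genes. This was Csf1, the growth factor of monocytes and macrophages, at 1.33 in WT, 1.21 in 1SA and 9.06 in 2SA. Tnf was well above background on 2SA only, and Il6 on no array. Of the 27 genes, 17 were lower than WT in 1SA and 12 in 2SA. Of 34 intracellular signalling genes on the array, 31 were measured on 3 arrays. Of these, 25 were lower in 1SA than in WT (median -0.32) and 21 higher in 2SA than in WT (median 0.17). Over all genes measured on 3 arrays, 50.3% were lower than WT in 1SA and 56.4% in 2SA. Among the 31 signalling genes, Gng2, a G protein subunit, was at least 2-fold lower in 1SA (-1.13) and Grk5, a receptor kinase, at least 2-fold higher in 2SA (1.22).

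Markers of leukocytes differed between the arrays too. In whole liver RNA, fewer cells of a type and less RNA per cell cannot be told apart. All 10 measured monocyte and macrophage markers were lower in 1SA than in WT, with a median of -0.75. They ranged from -1.73 for Spp1 to -0.05 for Csf1r. In 2SA 5 were higher and 5 lower than in WT, with a median of 0.21. Between the mutants all 10 were higher in 2SA, with a median of 1.18, but 2 of them by little. Over all genes measured on 3 arrays, 54.4% were lower in 2SA than in 1SA. The values of 2SA against 1SA were 2.37 for Chil3, 2.14 for Ms4a7 and 1.42 for Spp1. They were 0.04 for Csf1r, the receptor of Csf1, and 0.01 for Itgam. The summed scaled intensity of the 10, of which the Csf1r probe made up the largest part, was 94.7 in WT, 69.1 in 1SA and 102 in 2SA. None of the 10 was below background. The part of these cells in the differences of the CC ligands was not tested.

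Of 11 Kupffer cell markers, 9 were lower than WT in each mutant, with medians of -0.42 in 1SA and -0.84 in 2SA. Against 1SA, 7 were lower (54.4% of all genes were) and 4 higher in 2SA, the latter being Adgre1, C1qa, C1qb and C1qc. Their summed scaled intensity, of which the Cd5l and Marco probes made up most, was 265 in WT, 188 in 1SA and 160 in 2SA. Clec4f, a marker of resident Kupffer cells, was 0.45 above WT in 1SA and had a difference of -1.56 in 2SA, and Marco, a scavenger receptor, had -1.21 and -1.59. T and NK cell markers had medians of -0.21 in 1SA and 0.19 in 2SA over 13 genes, with the granzymes Gzma at -1.16 and 0.59 and Gzmb at -1.42 and 0.66. Of the 13 genes, 11 were higher in 2SA than in 1SA, whereas 54.4% of all genes were lower. At least 2-fold higher were 4, against 2.47% of all genes, namely both granzymes, Cd3g (1.22) and Cd2 (1.09). The other genes, Cd3e and Cd4, had -0.26 and -0.24. Of the same list, Ncr1, Eomes and Cd8a were not well above background on any array, whereas Cd8b1 was on all 3. Klrb1c was well above background on 1SA (0.0673) and 2SA (0.127) and not on WT (0.0381). Foxp3 and Klrk1 were well above background on 2SA only. Neutrophil markers had medians of 0.08 and -0.01, and B cell markers of 0.01 and 0.02. Dendritic cell markers had medians of -0.10 and 0.05 (Itgax -1.19 and 0.34), sinusoidal endothelial markers of -0.10 and -0.11, stellate cell markers of -0.18 and -0.55 (Acta2 -1.27 and -0.51), and hepatocyte markers of 0.10 and -0.14.

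**Figure D4:**
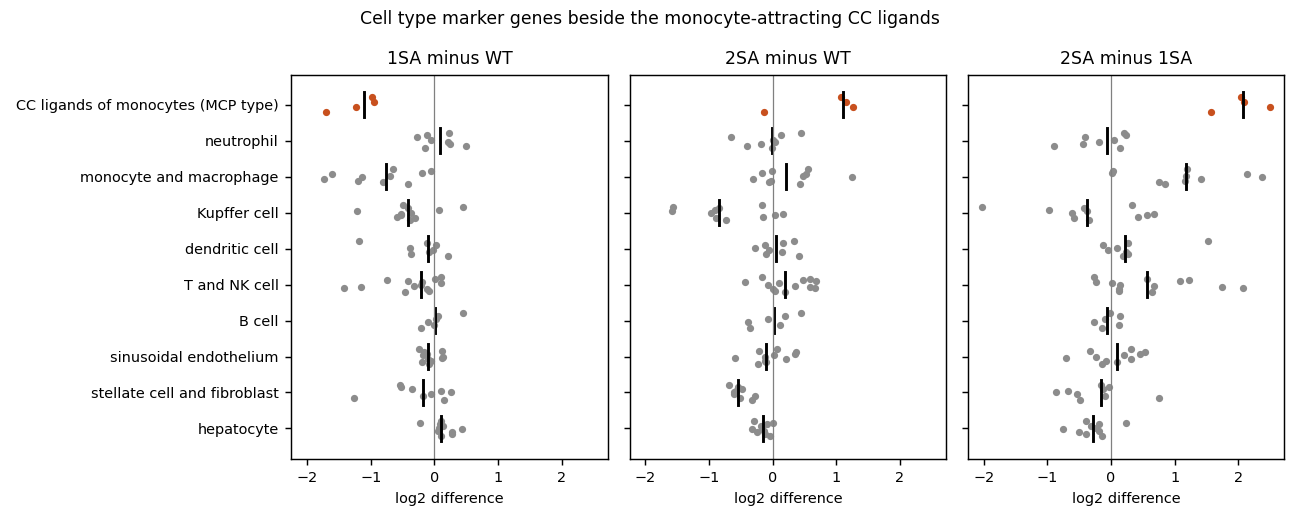
Log2 differences of cell type marker genes measured on 3 arrays, beside the 4 CC ligands named monocyte chemoattractant proteins (top), for each comparison. Points are genes and black lines are medians. The ligands have medians of -1.11, 1.11 and 2.07, and the monocyte and macrophage markers of -0.75, 0.21 and 1.18.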

How the data were processed

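Total RNA of liver was hybridised by the authors to SurePrint G3 mouse arrays, 1 array per group. Per the file headers, the authors' software was Feature Extraction 10.10.1.1 and the design used mm9. The deposited intensity was background-subtracted and detrended within the array, and not scaled between arrays. The deposited series matrix held the same intensity times 1 constant per array (3.02 for WT, 3.08 for 1SA, 2.81 for 2SA).

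Of 59305 non-control spots, 148 to 182 per array were left out as outliers, none of a chemokine or receptor gene. No spot was saturated. Each probe was the mean log2 intensity of its spots, less the log2 of the 75th percentile on that array. A probe was measured when at least 50% of its spots were well above background, which held for 52.0% to 55.3% of probes. A probe measured on 1 side was set against the higher of the dim value and the lowest measured signal of that array. That signal is not a limit of detection, as brighter probes were also not well above background, such as Eomes on 2SA (0.0349). Such differences can therefore be larger than the true ones. Of 55681 probes, 26762 were named through RefSeq accessions in a gene table of GRCm38.p6, and the brightest probe measured on 3 arrays stood for its gene. The table was used for names and gene order.

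Named genes were members at least 2-fold different in any comparison and the brightest measured member of each role group, with other members by value or count. One member enters the counts and medians and is not reported here by name. Genes of other lists were named when 2-fold different, at most 5 a list. Further list genes (Rarres2, Il6, Mmp8, Mmp9, Ngp, Csf1r, Itgam, Cd3e, Cd4, Adgre1, C1qa, C1qb, C1qc, Cd5l, Ncr1, Eomes, Cd8a, Cd8b1, Klrb1c, Foxp3, Klrk1) were named after their values were seen. The members and lists were chosen with earlier results of these data known. The median SD over repeated spots was 0.073 on the log2 scale, and 0.10 for a difference. The number of arrays limits the precision. Alternatives were quantile normalisation, the array median, normexp (offset 50, on median spot and background signals), the series matrix, no and a stricter filter on dim probes, the mean of all probes, all spots kept, probes as the unit and a 3-fold threshold. The procedure was tested on simulated data made from the WT array, with changes set in bright probes only. Differences of dim probes were therefore not covered by that test. Python 3.11.15, pandas 2.3.3, numpy 2.4.6, matplotlib 3.10.9, R 4.3.3 and limma 3.58.1 were used.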

Additional observations from a re-analysis of the deposited data

Results flagged for a closer look

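Of the 32 genes measured on all 3 arrays, 6 differed from WT in opposite directions in the mutants, each beyond the 95% range of the error in the scanner software's error model. Of all 13626 genes measured on 3 arrays, 1.71% met this rule. The difference was not tested, as each mutant had 1 array, and the construct and the liver sample cannot be told apart. On the log2 scale, 2SA exceeded 1SA by 2.50 for Ccl7, 2.19 for Ccl5, 2.09 for Ccl2 and 2.05 for Ccl12. For Ccl3 it was 1.58 and for Ccr9 1.24. Ccr9 was at -0.75 from WT in 1SA and at 0.49 in 2SA. All 6 kept both directions under each scaling and background correction run, with Ccl12 in 1SA nearest to 0 (-0.09 with normexp).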

How the results depend on the processing

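No paired analysis was possible because every group was a single array, and any effect of the slide could not be fitted. Counts below are of members at least 2-fold different. They are given without the share of all genes past the same limit, so they show only how the member counts moved. With normexp, 1SA had 1 below WT and 2SA had 3 above 1SA, with medians of -0.13 and 0.21. The medians over all genes were 0.007 and -0.044. All 19 differences of at least 2-fold kept their sign with normexp, and 6 of them stayed at least 2-fold. With no filter on dim probes, where all 53 genes entered, 1SA had 2 above and 12 below WT, 2SA had 4 below WT, and 5 lay below 1SA in 2SA. The medians were then -0.08 in 2SA against WT and 0.09 in 2SA against 1SA. Over all 20266 genes of this setting they were -0.084 and -0.099. With the stricter filter, where 14 genes entered, 1SA had 2 below WT, 2SA had 1 above WT and 3 lay above 1SA in 2SA. At 3-fold, these were 2, 0 and 4. Quantile normalisation, the array median, the series matrix, the mean of all measured probes, all spots kept and probes as the unit moved no count past 1.5 times and no median by more than 0.10. The cause was not tested beyond the fewer genes that a stricter limit leaves.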
